A study of Homo sapiens with 12 samples.

Results

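Polyamine metabolism was followed through 10 genes of polyamine synthesis, breakdown and control, SAT1, SMOX, PAOX, ODC1, AMD1, SRM, SMS, OAZ1, OAZ2 and AZIN1, in mRNA-seq of HCC1806 cells, an established line of triple-negative breast cancer. The genes were chosen by name, with earlier results of these data already known, and 9 of the 10 were found by Ensembl identifier among the 17013 genes of the processed table. PAOX was not analysed here. The cells carried a non-targeting control siRNA (siNT) or a pool of siRNAs against MLK4 (siMLK4), a kinase whose gene is listed as MAP3K21, and both kinds of cells then received 1 μM doxorubicin, an anthracycline that damages DNA, for 24 h or vehicle. This gave 4 groups of 3 libraries each: siNT with vehicle, siNT with doxorubicin, siMLK4 with vehicle and siMLK4 with doxorubicin. The vehicle was DMSO per the sample labels, although the study's methods call these cells untreated and the short sample names mark them as time 0. All 4 groups come from 1 cell line, and transfection carries no cell type restriction. Transfections were made in triplicate per the methods, with no word on separate days or passages. The study states in general that experiments were done at least 3 times unless marked otherwise, without tying this to these libraries. The p-values therefore measure the spread between libraries within groups, which may be technical. For each gene this spread was estimated jointly over the 4 groups, so each comparison also draws on libraries outside it. The libraries held 16759025 to 19302248 reads in the genes of the table, and no gene of the 9 had fewer than 324 reads in any library.

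Polyamines are small positively charged molecules that bind nucleic acids and are needed for translation and growth. Ornithine decarboxylase (ODC1) makes putrescine, and spermidine synthase (SRM) and spermine synthase (SMS) extend it to spermidine and spermine with aminopropyl groups that S-adenosylmethionine decarboxylase (AMD1) provides. Spermidine/spermine acetyltransferase (SAT1) tags spermidine and spermine for export or oxidation, and spermine oxidase (SMOX) returns spermine to spermidine, while the antizymes (OAZ1, OAZ2) bind ODC1 and send it for degradation and the antizyme inhibitor (AZIN1) frees it again. Much of this control acts on translation and protein turnover, which an mRNA library does not record.

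The control by antizymes can be read in the sequence itself. Antizyme mRNA is translated in full only when the ribosome slips past a base of a stop codon at high polyamine levels, and the sites of OAZ1 (chr19:2271428-2271458, plus strand, GRCh38) and OAZ2 (chr15:64691500-64691530, minus strand) are shown because they are nearly identical, with the stop codon, whose T is passed over, in capitals. Of the 31 bases, 30 are the same in OAZ1 and OAZ2.
OAZ1: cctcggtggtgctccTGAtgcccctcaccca
OAZ2: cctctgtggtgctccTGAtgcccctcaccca

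The sense strands of the MLK4 siRNAs, written 5′ to 3′ like all sequences here, are shown because short matches of a guide strand to other mRNAs can matter for genes that were not targeted. Capitals mark bases 12 to 18 of the sense strand, which correspond to the site for bases 2 to 8 of the guide.
siMLK4_1: ggaaagaugcuCAGAGAGauu
siMLK4_2: aggagaagcccAAGGUAAauu
siMLK4_3: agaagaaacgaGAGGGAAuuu
siMLK4_4: agaacagauugCAAAGAAauu
Such a site lies in the annotated 3′UTR of 44.3% of the 13583 genes with a 3′UTR. Among the polyamine genes AMD1 holds 2 sites, AZIN1 2 and SMS 1, and SAT1, SMOX, ODC1, SRM, OAZ1 and OAZ2 hold none. The presence of a site is a description, and its part in any difference below was not tested.

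Upstream sequence is shown for SAT1 and SRM, which moved in opposite directions with doxorubicin. The 250 bases before the RefSeq start (GRCh38.p14) lie at chrX:23782923-23783172 on the plus strand for SAT1 and at chr1:11060019-11060268 on the minus strand for SRM. Capitals mark the CCAAT box, named for its letters, at 79 and 13 bases before the start of SAT1. In SRM they mark an E-box (CACGTG), 2 CCAAT boxes and 6 GC boxes (GGGCGG). All motifs were searched on both strands, and the matches do not overlap.
SAT1: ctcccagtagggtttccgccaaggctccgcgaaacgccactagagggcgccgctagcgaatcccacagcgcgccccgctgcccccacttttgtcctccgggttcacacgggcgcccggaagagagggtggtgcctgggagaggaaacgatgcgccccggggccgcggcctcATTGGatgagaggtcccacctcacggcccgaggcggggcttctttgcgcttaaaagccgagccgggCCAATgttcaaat
SRM: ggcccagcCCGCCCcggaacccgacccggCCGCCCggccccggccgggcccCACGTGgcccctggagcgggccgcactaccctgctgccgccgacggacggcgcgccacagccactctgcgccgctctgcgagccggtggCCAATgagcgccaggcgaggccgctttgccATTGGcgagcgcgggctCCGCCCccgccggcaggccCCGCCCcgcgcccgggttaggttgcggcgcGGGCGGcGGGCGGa
The single E-box of SRM lies 199 bases before the start, and 6.49% of the 27305 promoters of the same length hold one, 33% a CCAAT box and 42.3% a GC box. An AP-1 site (TGANTCA), a cAMP response element (TGACGTCA), the core of the antioxidant response element (TGACNNNGC), the polyamine response element (TATGACTAA), a TATA box (TATAAA) and the κB consensus were also searched, and none of these letters occurs in these SAT1 and SRM windows. They occur in 6.6%, 1.77%, 11%, 0.084%, 11.1% and 9.57% of all promoters.

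The knock-down was visible in every siMLK4 library. With vehicle MAP3K21 had 553, 670 and 674 normalized reads (reads divided by the size factor of the library) in siNT and 103, 94.7 and 88.7 in siMLK4 libraries, and 758, 856 and 772 against 113, 138 and 94.4 with doxorubicin. The siMLK4 libraries thus held 15.1% of the siNT level with vehicle and 14.5% with doxorubicin (adjusted p = 9.7e-08 and 1.1e-07, limma). Keratins and other epithelial markers, CDH1 and EPCAM among them, were present, 7 of 7. KRT5 was the most abundant in siNT vehicle cells at 20878 ± 3207 normalized reads (SD, n = 3). Among the hormone receptors that define the triple-negative state, ESR1 had 92.7 ± 18 normalized reads (SD, n = 3) in siNT vehicle cells and PGR 0 in every vehicle library. With doxorubicin ESR1 was lower in siNT and in siMLK4 cells, at 50.2% and 41.8% of the vehicle means (adjusted p = 0.0072 and 0.0014), and PGR had 7.26 to 18.5 normalized reads in the 6 libraries. PGR was called higher in both kinds of cells, but against 0 reads. The lowest mean of any gene of the table in its highest group was 10.7 normalized reads. PGR is thus in the table only through its doxorubicin groups, and no conclusion is drawn from its calls. The epithelial markers summed to 66584, 71038 and 69612 normalized reads with vehicle and 38027, 39660 and 41733 with doxorubicin in siNT cells. Of the 7, 4 were lower with the drug (27.7% of all genes were). In siMLK4 cells they summed to 66667, 64335 and 62735 with vehicle and 27865, 26884 and 30180 with doxorubicin, so that under the drug every siMLK4 library lay below every siNT library. With vehicle the knock-down moved these markers in opposite directions, 4 of the 7 lower (KRT6A, KRT14, KRT17 and EPCAM, at 43.5%, 47.8%, 63.2% and 64.4% of the siNT mean) and KRT5 higher (155%), against 13% and 12.7% of all genes. Of the leukocyte markers 2 of 4 were in the table and summed to 12.9 to 19.1 normalized reads in siNT vehicle and 38.7 to 52.6 in siNT doxorubicin libraries, with CD14 the more abundant in both groups. In siMLK4 cells they summed to at most 36.8 with vehicle and 64.2 with doxorubicin, and CD14 stood at 235% of the siNT mean with vehicle (adjusted p = 0.015). The 2 of 4 fibroblast markers in the table (COL1A1, the more abundant, and LUM) summed to 379 to 459 normalized reads in siNT and 646 to 810 in siMLK4 vehicle libraries, and to 280 to 301 against 358 to 500 with doxorubicin. COL1A1 stood at 185% of the siNT mean in siMLK4 vehicle cells (adjusted p = 0.00041). The siRNA groups thus differed in these markers as well as in SAT1, SRM and SMS. The 1 of 3 endothelial markers, VWF, had 13.5 to 67.1. The part of these shifts in the results on polyamine genes was not tested, and in bulk RNA fewer cells of a kind and less RNA per cell cannot be told apart.

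A library of each vehicle group stood apart from the rest of its group. The chi-square per degree of freedom was 31.8 and 56.8 between siNT vehicle replicate 1 and replicates 2 and 3, and 63.7 and 37.5 between siMLK4 vehicle replicate 3 and replicates 1 and 2. The other pairs of vehicle libraries, at 17.8 and 10.8, lay within the range of the doxorubicin groups, 7.01 to 25.2. OAZ1 and SMS were highest in siNT vehicle replicate 1 and, within the siMLK4 vehicle group, in replicate 3. Within each vehicle group, SAT1, SMOX and OAZ2 were also highest in these libraries. Where leaving out one of these libraries changed a call of the 9 genes, this is said below.

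Doxorubicin raised SAT1, the acetyltransferase of the breakdown branch, in siNT cells and in siMLK4 cells alike. SAT1 (chrX:23783173-23786210, plus strand, GENCODE 44 on GRCh38) had 1918, 1348 and 1218 normalized reads with vehicle and 3389, 3306 and 3151 with doxorubicin in siNT cells. In siMLK4 cells it had 786, 916 and 1151 with vehicle and 1810, 1873 and 2086 with doxorubicin. The lowest doxorubicin library stood above the highest vehicle library within each siRNA. The mean rose 2.20-fold in siNT cells, a log2 difference of 1.13 ± 0.16 (SE; adjusted p = 3.6e-05), and by a factor of 2.02 in siMLK4 cells, a log2 difference of 0.99 ± 0.16 (adjusted p = 0.00011). Without siNT vehicle replicate 1, the highest vehicle library, the siNT difference was 1.32, and without siMLK4 vehicle replicate 3 the siMLK4 difference was 1.13.

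**Figure D1:**
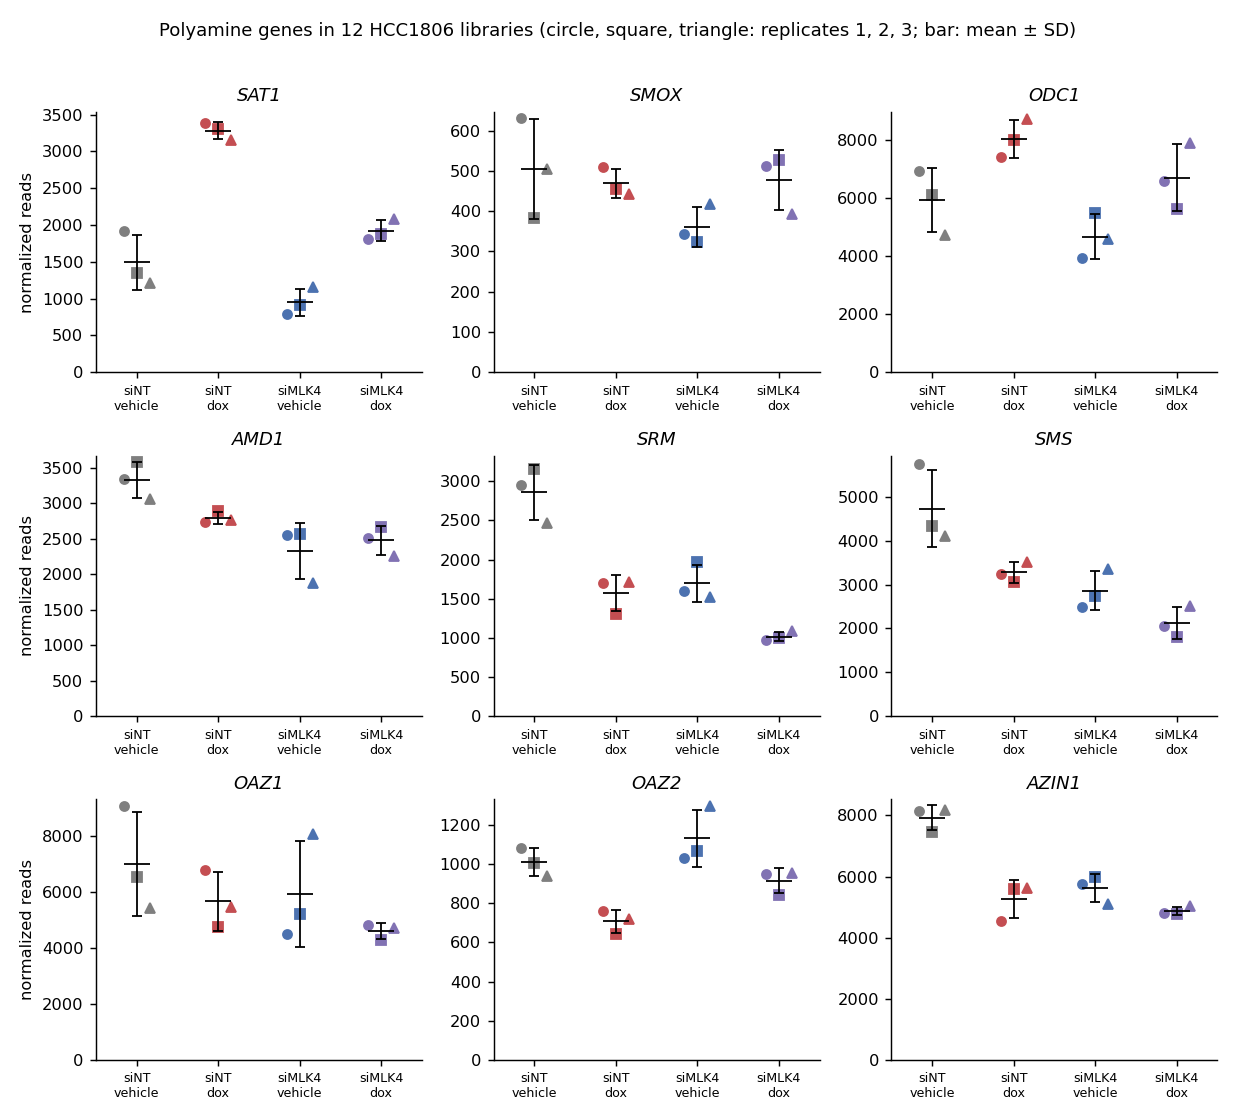
Normalized reads of the 9 polyamine genes (vertical axes, each from 0) in the 4 groups, with 1 symbol per library, the same symbol for the same replicate number, and the mean ± SD of 3 libraries as a bar. SAT1 in the 3 siNT doxorubicin libraries lies between 3151 and 3389 normalized reads, above every other library, and SRM is lowest in the siMLK4 doxorubicin libraries, between 967 and 1086.

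SAT1 was also lower in siMLK4 than in siNT cells, with or without the drug. With vehicle its mean was 63.6% of the siNT mean (log2 difference −0.61 ± 0.16, adjusted p = 0.011), and the groups were separated only by the gap between 1151 and 1218 normalized reads. Without siNT vehicle replicate 1 that difference was −0.43 (adjusted p = 0.041), and in a fit of these 6 libraries alone its adjusted p was 0.076. With doxorubicin the mean was 58.6% of the siNT mean (−0.76 ± 0.16, adjusted p = 0.0032), and the siNT libraries lay well above the siMLK4 libraries. The siMLK4 level with doxorubicin, 1923 ± 145 normalized reads (SD, n = 3), lay near the highest siNT library without drug. The response to doxorubicin itself did not differ detectably between siMLK4 and siNT cells, with an interaction of −0.14 (95% confidence interval −0.62 to 0.34, adjusted p = 0.84). This interval leaves room for a response in siMLK4 cells that is smaller or larger than in siNT cells. The size of the interaction also depended on single libraries. The siNT response was 1.32 without siNT vehicle replicate 1 and 1.00 without siNT vehicle replicate 3, beside 0.99 in siMLK4 cells.

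SMOX, the oxidase that acts on spermine, passed the test in none of the 4 comparisons with all 12 libraries. It had 631, 382 and 504 normalized reads in siNT vehicle libraries, 510, 456 and 442 in siNT doxorubicin libraries, 345, 323 and 417 in siMLK4 vehicle libraries and 513, 526 and 392 in siMLK4 doxorubicin libraries. The groups overlapped in each comparison, and the largest of its log2 differences was −0.41 ± 0.16 between siMLK4 and siNT with vehicle (adjusted p = 0.071). It passed at −0.58 without siNT vehicle replicate 2 and at −0.51 without siMLK4 vehicle replicate 3 (adjusted p = 0.018 and 0.046). The drug difference of 0.35 in siMLK4 cells (adjusted p = 0.071) passed in 4 of the 12 fits that left out 1 library, those without siNT vehicle replicate 1 or 2, siMLK4 vehicle replicate 3 or siMLK4 doxorubicin replicate 3, with adjusted p of 0.028 to 0.043.

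On the synthesis side the genes did not move together. ODC1 (chr2:10439968-10448327, minus strand), whose product makes putrescine, rose with doxorubicin. It had 6947, 6114 and 4736 normalized reads with vehicle and 7401, 7998 and 8722 with doxorubicin in siNT cells, and 3925, 5476 and 4607 against 6594, 5618 and 7906 in siMLK4 cells. Vehicle and doxorubicin libraries did not overlap within either siRNA, and in siMLK4 cells only the gap between 5476 and 5618 separated them. The log2 difference was 0.45 ± 0.16 (adjusted p = 0.030) for siNT and 0.52 ± 0.16 (adjusted p = 0.015) for siMLK4 cells. The siNT call was lost without replicate 2 or 3 of siNT vehicle or replicate 2 or 3 of siNT doxorubicin, with adjusted p up to 0.14. The siMLK4 call was lost without replicate 1 of siMLK4 vehicle or replicate 3 of siMLK4 doxorubicin, with adjusted p up to 0.071. Between siMLK4 and siNT cells ODC1 differed by −0.34 with vehicle and −0.27 with doxorubicin, neither past the test (adjusted p = 0.15 and 0.25). Without siNT vehicle replicate 3 the former was −0.49 and passed (adjusted p = 0.046).

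SRM (chr1:11054584-11060020, minus strand), which makes spermidine, fell with doxorubicin and was lower in siMLK4 cells. It had 2957, 3156 and 2466 normalized reads in siNT vehicle libraries and 1696, 1309 and 1708 in siNT doxorubicin libraries. In siMLK4 cells it had 1598, 1968 and 1526 with vehicle and 967, 993 and 1086 with doxorubicin. Each group in each of the 4 comparisons was clear of the other, and the siMLK4 vehicle level was close to that of siNT cells with the drug. In siNT cells doxorubicin left 54.9% of the vehicle mean (log2 difference −0.85 ± 0.13, adjusted p = 0.00011). The siMLK4 share left was 59.8% (−0.71 ± 0.13, adjusted p = 0.00049). MLK4 knock-down left 59.3% with vehicle (−0.74 ± 0.13, adjusted p = 0.0013) and 64.6% with doxorubicin (−0.60 ± 0.13, adjusted p = 0.0053).

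SMS (chrX:21940709-21994837, plus strand), which makes spermine, followed SRM in direction with smaller drug differences. It had 5746, 4344 and 4117 normalized reads in siNT vehicle, 3250, 3057 and 3525 in siNT doxorubicin, 2495, 2736 and 3364 in siMLK4 vehicle and 2060, 1808 and 2512 in siMLK4 doxorubicin libraries. Doxorubicin libraries lay below vehicle libraries in siNT cells, whereas in siMLK4 cells 2512 with the drug overlapped 2495 without it. The drug difference was −0.51 ± 0.15 (adjusted p = 0.011) for siNT and −0.42 ± 0.15 (adjusted p = 0.029) for siMLK4 cells. Without siNT vehicle replicate 1 the former was −0.36 (adjusted p = 0.053). The latter was −0.30 without siMLK4 vehicle replicate 3 (adjusted p = 0.11), and its call was also lost without siMLK4 vehicle replicate 2, siMLK4 doxorubicin replicate 1 and siMLK4 doxorubicin replicate 2 (adjusted p = 0.052, 0.078 and 0.13). Between siMLK4 and siNT cells SMS was lower by more, −0.71 with vehicle (adjusted p = 0.0039) and −0.62 with doxorubicin (adjusted p = 0.0090), with no overlap between the groups. SMS shares 22.1% of its stretches of 50 bases with other genes, against at most 5.65% (OAZ1) for the other genes here. Its level is uncertain to the extent that reads of these stretches were lost or misassigned.

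AMD1, the source of aminopropyl groups, passed the test in 1 comparison, between siMLK4 and siNT cells with vehicle. It had 3347, 3576 and 3066 normalized reads in siNT vehicle and 2547, 2563 and 1876 in siMLK4 vehicle libraries, with no overlap (log2 difference −0.52 ± 0.12, adjusted p = 0.0074). In a fit of these 6 libraries alone the adjusted p was 0.051. With doxorubicin AMD1 had 2735, 2889 and 2757 in siNT and 2514, 2663 and 2249 in siMLK4 libraries, a difference of −0.17 that did not pass the test (adjusted p = 0.33), although the libraries did not overlap. Within siNT cells the doxorubicin libraries also lay below the vehicle libraries, by −0.25 (adjusted p = 0.10), and this difference passed in the fit without siMLK4 vehicle replicate 3 (adjusted p = 0.038). With library totals in place of size factors it was −0.0099 (adjusted p = 0.96).

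Among the regulators of ODC1, AZIN1 and OAZ2 fell with doxorubicin in siNT cells and OAZ1 passed no test. AZIN1, on chromosome 8, had 8149, 7447 and 8176 normalized reads in siNT vehicle and 4551, 5608 and 5622 in siNT doxorubicin libraries, a separation without overlap (log2 difference −0.59 ± 0.11, adjusted p = 0.00041). In siMLK4 cells it had 5764, 5997 and 5116 with vehicle and 4819, 4768 and 5024 with doxorubicin. This difference of −0.20 did not pass the test (adjusted p = 0.13), although the libraries did not overlap. With vehicle AZIN1 was lower in siMLK4 than in siNT cells (−0.49, adjusted p = 0.0048), and with doxorubicin it differed by −0.10 (adjusted p = 0.53). Of the 9 genes AZIN1 was the 1 with an unadjusted p below 0.05 for the interaction, as 14.5% of all genes had, 0.39 (95% confidence interval 0.06 to 0.72, unadjusted p = 0.025 in limma's fit over all genes). After adjustment p was 0.25, so a difference between its 2 drug responses was not shown.

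OAZ2 (chr15:64687573-64703281, minus strand), the less abundant antizyme, had 1083, 1006 and 941 normalized reads in siNT vehicle, 759, 645 and 718 in siNT doxorubicin, 1030, 1065 and 1298 in siMLK4 vehicle and 951, 841 and 953 in siMLK4 doxorubicin libraries. Doxorubicin libraries lay below vehicle libraries within each siRNA. The log2 difference was −0.48 ± 0.11 (adjusted p = 0.0022) for siNT and −0.29 ± 0.11 (adjusted p = 0.042) for siMLK4 cells. The latter call was lost in a fit of these 6 libraries alone (adjusted p = 0.070) and in 7 of the 12 fits that left out 1 library, those without siNT vehicle replicate 2, siNT doxorubicin replicate 3, siMLK4 vehicle replicate 2 or 3 or any siMLK4 doxorubicin library, with adjusted p up to 0.17 (siMLK4 vehicle replicate 3). OAZ2 was the 1 gene of the set that was higher in siMLK4 cells with doxorubicin (0.35 ± 0.11, adjusted p = 0.036). That call was lost without replicate 2 or 3 of the siNT or replicate 1 or 3 of the siMLK4 libraries with doxorubicin, with adjusted p up to 0.14. OAZ1 (chr19:2269509-2273490, plus strand) had 9052, 6541 and 5421 normalized reads in siNT vehicle and 4501, 5219 and 8069 in siMLK4 vehicle libraries, a spread wider than any of its differences, which ran from −0.32 to −0.25. Without siNT vehicle replicate 1 its difference with doxorubicin in siNT cells was −0.089 and that of the knock-down with vehicle −0.051 (adjusted p = 0.73 and 0.89). Without siMLK4 vehicle replicate 3 the latter was −0.49 (adjusted p = 0.073).

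**Figure D2:**
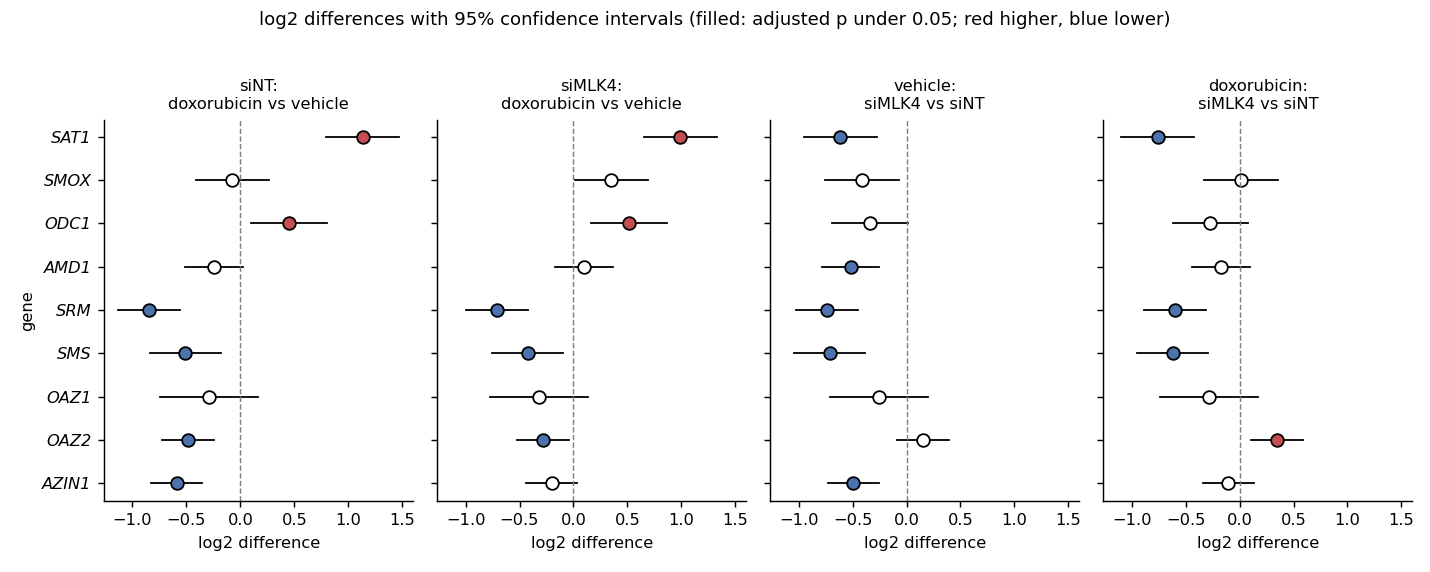
Log2 differences of the 9 genes in the 4 comparisons (horizontal axes), with 95% confidence intervals from limma as lines and filled points for adjusted p under 0.05, red for higher and blue for lower. SAT1 is at 1.13 and 0.99 with doxorubicin, and SRM and SMS are the genes filled blue in all 4 panels.

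Counted together, 2 of the 9 genes were higher (SAT1, ODC1) and 4 lower (SRM, SMS, OAZ2, AZIN1) with doxorubicin in siNT cells, while 3 did not pass the test. Of all 17013 genes 29.6% were higher and 27.7% lower in that comparison, and 23.7% and 31.9% of the 13295 genes that had 10 reads or more in each library, among which all 9 fall. In siMLK4 cells 2 were higher and 3 lower, where 30.2% and 27.7% of all genes were (25.2% and 30.7% of the 13295). Between siMLK4 and siNT cells 0 were higher and 5 lower with vehicle, against 12.7% and 13% of all genes (12.4% and 15.9% of the 13295). No gene of the set was higher there at an unadjusted p below 0.05 or with limma-voom. With doxorubicin 1 was higher and 3 lower, against 12.7% and 12.1% (13% and 14.1% of the 13295). The share of members lower in siMLK4 vehicle cells, 5 of 9, lay above that of all genes, and the shares with doxorubicin against vehicle lay on either side of it. At the study's own thresholds, an adjusted p under 0.01 and a log2 difference over 0.75, the calls were SAT1 and SRM in siNT cells (22.7% of all genes passed), SAT1 in siMLK4 cells (23.2%), none with vehicle (5.65%) and SAT1 with doxorubicin (5.58%). The median log2 differences of the 9 genes were −0.29, −0.20, −0.49 and −0.27 in the 4 comparisons, beside medians of 0.005, 0.018, 0.012 and 0.023 over all genes. The comparisons share groups, so these medians are not independent of each other. For the interaction 0 of the 9 passed limma's test after adjustment, 1 at an unadjusted p below 0.05 (14.5% of all genes) and 0 with limma-voom, while after adjustment 0.576% of all genes were higher and 0.623% lower in their response in siMLK4 cells (0.276% at the study's thresholds).

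Ratios within a library do not depend on how libraries are scaled, and they set SAT1 directly against genes of synthesis. Reads of SAT1 per read of SRM were 0.649, 0.427 and 0.494 in siNT vehicle and 2.00, 2.53 and 1.85 in siNT doxorubicin libraries. In siMLK4 cells they were 0.491, 0.465 and 0.755 with vehicle and 1.87, 1.89 and 1.92 with doxorubicin. Every doxorubicin library lay above every vehicle library, and the siNT and siMLK4 ranges overlapped under either treatment. For SAT1 per SMS the siNT means were 0.313 ± 0.019 with vehicle and 1.01 ± 0.10 with doxorubicin, and the siMLK4 means 0.331 ± 0.014 and 0.915 ± 0.108 (SD, n = 3). SAT1 per ODC1 moved less, from 0.251 ± 0.028 to 0.411 ± 0.048 and from 0.206 ± 0.042 to 0.291 ± 0.037 in the same order, with ODC1 itself higher after the drug. ODC1 per AZIN1 went from 0.751 ± 0.150 to 1.54 ± 0.10 and from 0.832 ± 0.131 to 1.37 ± 0.20, and ODC1 per OAZ1 from 0.859 ± 0.085 to 1.46 ± 0.32 and from 0.831 ± 0.242 to 1.46 ± 0.20. These ratios were chosen after the differences of the single genes were known and are given as a description.

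**Figure D3:**
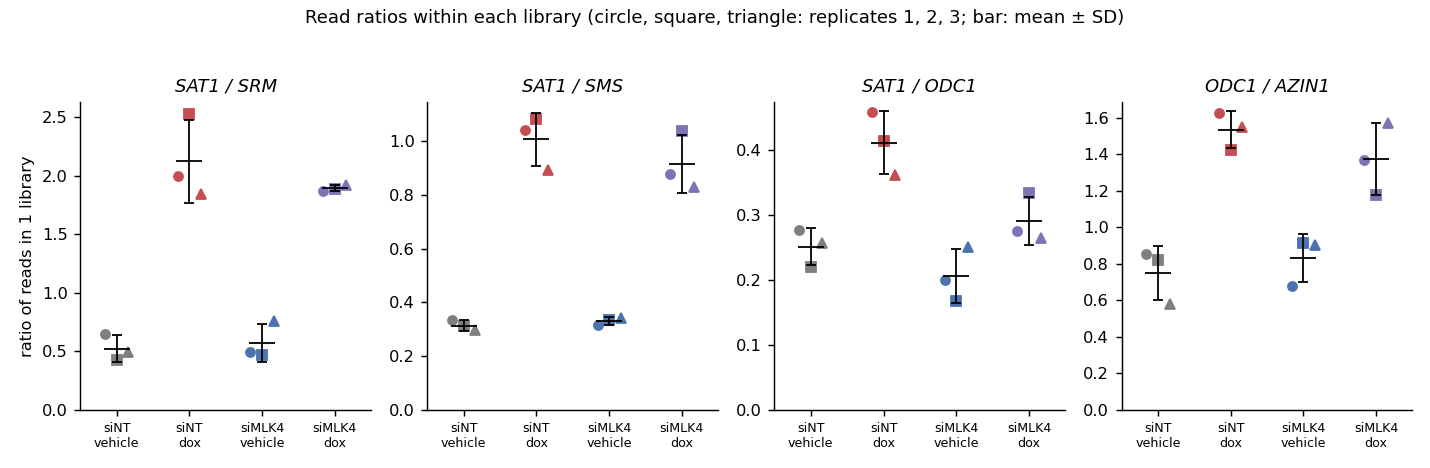
Ratios of reads of 2 genes within each library (vertical axes, each from 0) for SAT1 per SRM, SAT1 per SMS, SAT1 per ODC1 and ODC1 per AZIN1 in the 4 groups, with 1 symbol per library and the mean ± SD of 3 libraries as a bar. SAT1 per SRM lies between 0.427 and 0.755 in the 6 vehicle libraries and between 1.85 and 2.53 in the 6 doxorubicin libraries.

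The order of the genes by level per kilobase of exon shifted accordingly. In siNT vehicle cells SMS, OAZ1, ODC1, SRM and AZIN1 came first, with means of 2223, 2039, 1794, 1510 and 1293 normalized reads per kilobase, and each overlapped its neighbour in that order. SAT1 followed at 602 ± 150, then AMD1 at 327 ± 25, SMOX at 172 ± 42.2 and OAZ2 at 132 ± 9.26, of which only SMOX and OAZ2 overlapped. With doxorubicin ODC1 led at 2431 ± 200 in siNT cells, and SAT1 stood at rank 4 with 1322 ± 48.6, clear of SMS at 1539 above it and AZIN1 at 858 below it. In siMLK4 cells ODC1 also led with the drug, at 2028 ± 347, while SAT1 at 775 ± 58.3 overlapped AZIN1 at 794 ± 22.1. With the longest transcript as the length of each gene, 2 to 5 of the 9 ranks changed in each group, and SAT1, whose longest transcript (1135 bases) is much shorter than its exons combined (2482 bases), took rank 2 in either doxorubicin group.

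**Figure D4:**
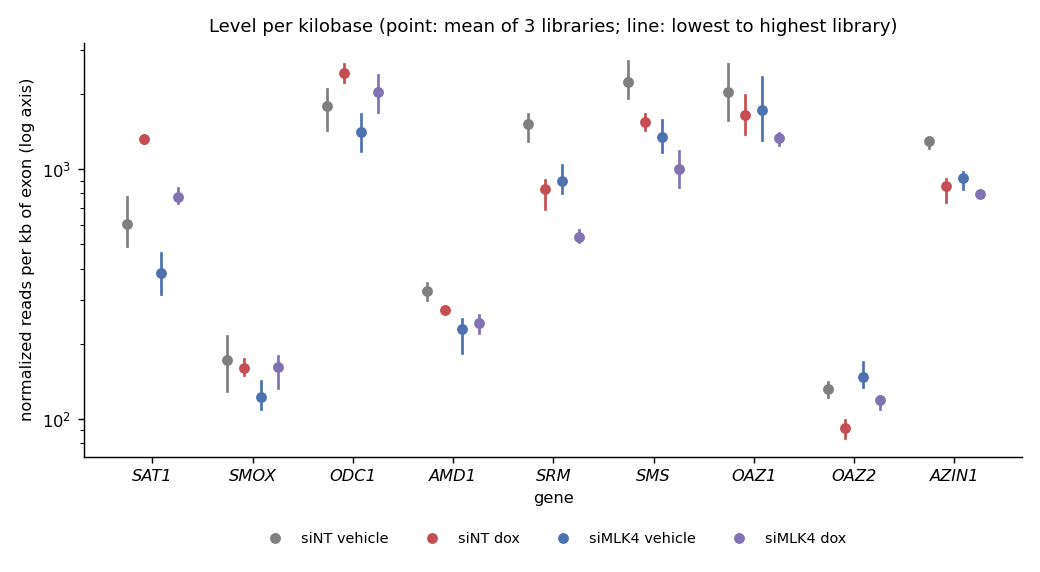
Normalized reads per kilobase of exon on a log axis for the 9 genes, in 4 colours for the groups, with the mean of 3 libraries as a point and the lowest to highest library as a line. SAT1 stands at 602 in siNT vehicle and 1322 in siNT doxorubicin cells, and OAZ2 and SMOX remain the lowest genes in all 4 groups.

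Across the 12 libraries the genes most like SAT1 were NR4A1, IFRD1, GSTZ1, PHLDA2 and AVPI1, by the root mean square difference of log2 values centred on each gene's mean, among 10547 genes with a mean of at least 100 reads. Their distances ran from 0.129 to 0.192, against a median of 0.740 over all these genes. NR4A1, an immediate early nuclear receptor, had log2 differences of 0.91 and 0.94 with doxorubicin and −0.69 and −0.65 between siMLK4 and siNT cells, close to those of SAT1. ODC1 was the nearest polyamine gene to SAT1, at rank 315 (0.388), and SRM the farthest, at rank 8418 (0.946). The genes most like ODC1 were MRPL45, VRK1, SLC27A2, TRMT1 and GTF2A2, at distances of 0.137 to 0.151.

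Around the core pathway, 42 genes of supply, transport, salvage, hypusination and control were listed, of which 36 were in the table. With doxorubicin 3 were higher and 17 lower in siNT cells (median −0.34), and 7 were higher and 18 lower in siMLK4 cells (median −0.36), where 29.6% and 27.7%, and 30.2% and 27.7%, of all genes were. Between siMLK4 and siNT cells 1 was higher and 14 lower with vehicle (median −0.35), and 3 were higher and 12 lower with doxorubicin (median −0.21), against 12.7% and 13%, and 12.7% and 12.1%, of all genes. The genes counted as higher with the drug include ATP13A4, which had 0 reads in every siNT vehicle library. For the interaction 0 passed limma's test and 5 of the 36 had an unadjusted p below 0.05, near the 14.5% of all genes.

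In the supply of ornithine and arginine 5 of 8 measured genes were lower and 0 higher with doxorubicin in siNT cells (27.7% and 29.6% of all genes were), and 4 were lower and 1 higher in siMLK4 cells (27.7% and 30.2%). ALDH18A1, which starts the route from glutamate to ornithine and proline, had 3697, 3964 and 3779 normalized reads in siNT vehicle and 1292, 1595 and 1653 in siNT doxorubicin libraries, 39.7% of the vehicle mean (adjusted p = 6.7e-07). It also fell in siMLK4 cells, to 37.9% (adjusted p = 5.7e-07). ASS1, of arginine synthesis, and SLC7A1, the importer of cationic amino acids, fell to 25.5% and 41.9% of the vehicle means in siNT cells (adjusted p = 0.00025 and 4.3e-05). The drug difference of SLC7A1 in siMLK4 cells, −0.37, did not pass (adjusted p = 0.078) except without siNT vehicle replicate 2 or 3 (adjusted p = 0.045 and 0.021). For SLC7A1 the interaction of 0.84 did not pass limma's test (adjusted p = 0.11), so a difference between its drug responses was not shown. Of the 8 genes 4 were lower in siMLK4 than in siNT cells with vehicle (13% of all genes were), among them SLC25A15, the mitochondrial ornithine carrier, at 46.4% of the siNT mean (adjusted p = 2.6e-05), and SLC7A1 at 48.8% (adjusted p = 0.00086). ARG2, the mitochondrial arginase that yields ornithine, had 592, 264 and 404 normalized reads in siNT vehicle and 153, 140 and 183 in siMLK4 vehicle libraries (adjusted p = 0.00087), and 311, 306 and 296 against 293, 340 and 265 with doxorubicin. Its siRNA groups were thus apart with vehicle and overlapped with doxorubicin, and in siMLK4 cells it rose to 189% of the vehicle mean with the drug (adjusted p = 0.0044). Its difference with vehicle was −0.86 without siNT vehicle replicate 1 and still passed (adjusted p = 0.0019). The interaction of 1.09 did not pass the test (adjusted p = 0.069), and passed without siNT vehicle replicate 2, at 1.35 (adjusted p = 0.010).

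**Figure D5:**
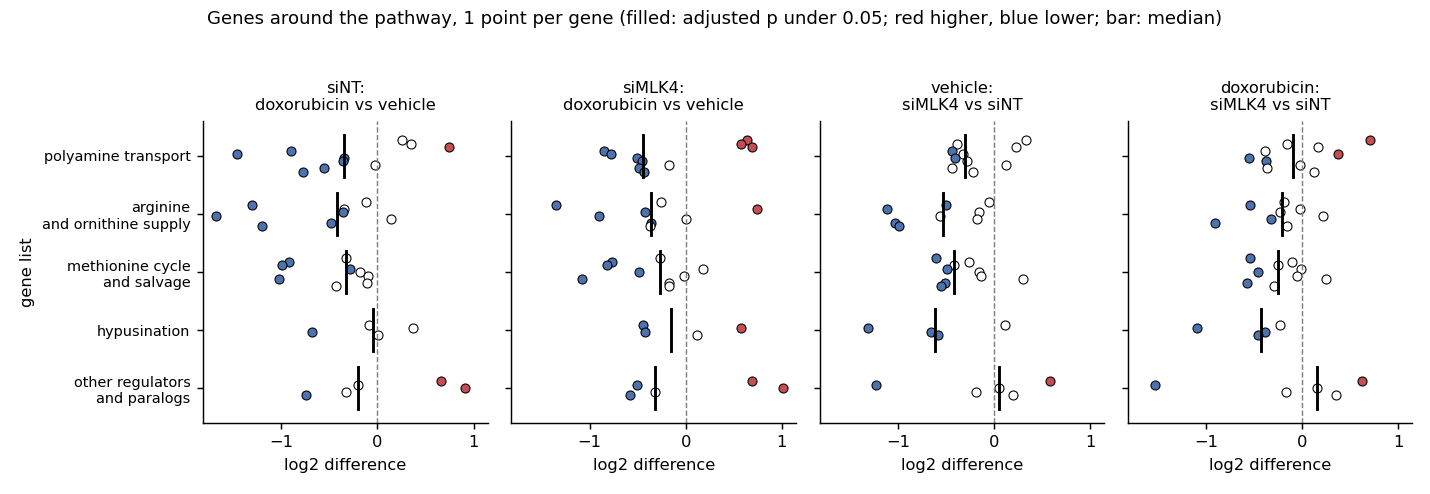
Log2 differences of the 36 measured genes around the pathway (horizontal axes) by list in the 4 comparisons, with 1 point per gene, filled for adjusted p under 0.05 (red higher, blue lower), and the median of each list as a bar. In siNT cells with doxorubicin 17 genes are filled blue and 3 red.

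The methionine cycle and the salvage of the methylthioadenosine that SRM and SMS release held 0 of 9 genes that were higher in any of the 4 comparisons, where 29.6%, 30.2%, 12.7% and 12.7% of all genes were. It held 4 that were lower with doxorubicin in siNT cells (MRI1, APIP, AHCY and ENOPH1) and 4 in siMLK4 cells (MRI1, APIP, AHCY and MAT2A), where 27.7% of all genes were lower in each. MRI1 and APIP of the salvage route fell to 43.4% and 48.9% of the vehicle mean in siNT cells (adjusted p = 9.4e-05 and 0.00031), and AHCY, which clears S-adenosylhomocysteine, to 52.3% (adjusted p = 4.9e-05). MTAP, the first enzyme of the salvage, had 68.6% of the siNT level in siMLK4 vehicle cells (adjusted p = 0.0038) and 64.7% with doxorubicin (adjusted p = 0.0017). Between siMLK4 and siNT cells 4 of these 9 genes were lower with vehicle and 3 with doxorubicin, against 13% and 12.1% of all genes.

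In hypusination, the modification of eIF5A that consumes spermidine, EIF5A fell to 62.6% of the vehicle mean with doxorubicin in siNT cells (adjusted p = 0.00060) and stood at 63.6% of the siNT mean in siMLK4 vehicle cells (adjusted p = 0.0028). DOHH, the hydroxylase of the final step, had 261, 193 and 120 normalized reads in siNT vehicle and 42.1, 50.8 and 53.0 in siMLK4 vehicle libraries. Every siMLK4 library lay below every siNT library, at 25.4% of the siNT mean (adjusted p = 0.00023), and with doxorubicin at 36.3% (adjusted p = 0.00086). The log2 difference with vehicle went from −1.31 to −1.10 without siNT vehicle replicate 1 (adjusted p = 0.00073). With doxorubicin DOHH rose in siMLK4 cells, to 191% of the vehicle mean (adjusted p = 0.017), a call lost without siMLK4 vehicle replicate 1 or siMLK4 doxorubicin replicate 2 (adjusted p = 0.052 and 0.051). Of the 4 genes of this list 1 was lower with the drug in siNT cells (27.7% of all genes), and 1 was higher and 2 lower in siMLK4 cells (30.2% and 27.7%). Of the same 4 genes 3 (DOHH, EIF5A and EIF5A2) were lower in siMLK4 cells under either treatment, against 13% of all genes with vehicle and 12.1% with doxorubicin.

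Of the 10 transport genes 6 were lower with doxorubicin in either kind of cell, where 27.7% of all genes were, and 1 was higher in siNT and 3 in siMLK4 cells, against 29.6% and 30.2%. GPC1, a glypican linked to polyamine uptake, fell to 35.4% of the vehicle mean in siNT cells and to 57.9% in siMLK4 cells (adjusted p = 4.6e-07 and 0.00011), an interaction of 0.69 that did not pass the test (adjusted p = 0.070) except without siNT vehicle replicate 3 or siMLK4 doxorubicin replicate 3 (adjusted p = 0.036 and 0.045). Between siMLK4 and siNT cells 0 of the 10 were higher and 2 lower with vehicle, against 12.7% and 13% of all genes. With doxorubicin 2 were higher and 2 lower, against 12.7% and 12.1%. ATP13A2, which exports polyamines from lysosomes, had 808, 802 and 721 normalized reads in siNT and 1389, 1402 and 1126 in siMLK4 doxorubicin libraries, a difference of 0.71 (adjusted p = 0.00073). GPC1 was also higher there, by 0.37 (adjusted p = 0.041), while SLC12A8 and SLC18B1 differed by −0.56 and −0.37 (adjusted p = 0.0030 and 0.034). ATP13A4 was called higher with doxorubicin but had at most 16.7 normalized reads in any library and 0 in every siNT vehicle library. The lowest mean of any gene of the table in its highest group was 10.7, which ATP13A4 passed only in siMLK4 doxorubicin cells. It was the 1 transport gene counted as higher in siNT cells and 1 of the 3 in siMLK4 cells, so no conclusion is drawn from these counts of higher genes.

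Among other regulators and paralogs, MYC, a transcription factor known for activating ODC1, had 4380, 3354 and 4191 normalized reads in siNT vehicle and 1446, 1723 and 1815 in siMLK4 vehicle libraries. With doxorubicin it had 3257, 3271 and 3759 in siNT and 1061, 1018 and 1408 in siMLK4 libraries. Knock-down of MLK4 left 41.8% and 33.9% of the siNT level (adjusted p = 3.5e-05 and 7.7e-06), while the drug difference in siNT cells was −0.20 (adjusted p = 0.23). After siMLK4, MYC fell with doxorubicin by 0.50 on the log2 scale, to 70.0% of the vehicle mean (adjusted p = 0.0075). MYC therefore differed with the siRNA in the direction of SRM, SMS and SAT1, and its part in their levels was not tested. AZIN2, the paralog of AZIN1, was the 1 related gene called higher in siMLK4 vehicle cells, at a low level. It had 11.7, 11.4 and 22.5 normalized reads in siNT vehicle, 47.1, 44.8 and 35.5 in siNT doxorubicin, 51.1, 26.9 and 38.9 in siMLK4 vehicle and 92.4, 113 and 59.9 in siMLK4 doxorubicin libraries, with no overlap in any of the 4 comparisons. The log2 differences were 0.66 and 0.69 with doxorubicin in siNT and siMLK4 cells (adjusted p = 0.0036 and 0.0025) and 0.58 and 0.62 between siMLK4 and siNT cells with vehicle and with doxorubicin (adjusted p = 0.018 and 0.014). The call with vehicle was lost without siNT vehicle replicate 1 or 2 or siMLK4 vehicle replicate 1, and that with doxorubicin without siNT doxorubicin replicate 3 or siMLK4 doxorubicin replicate 1 or 2, with adjusted p up to 0.076 and 0.071. OAZ3, the antizyme of the testis, rose with doxorubicin from 7.05, 13.5 and 13.5 to 53.5, 56.0 and 39.5 normalized reads in siNT cells, a low level at which the variance-stabilized log2 difference of 0.91 understates the ratio of means of 438%. SAT2, the paralog of SAT1, went the other way from SAT1, to 56.4% of the vehicle mean in siNT cells (adjusted p = 0.010).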

How the data were processed

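RNA was poly(A)-selected, prepared with a kit that keeps strand and sequenced in pairs. The authors' steps, per the methods and the submitters' processing notes, were trimming (Trimmomatic 0.39), mapping (HISAT2), removal of optical duplicates, strand-aware counting per gene (HTSeq 0.6.0) and DESeq2 1.26.0. The methods name GRCh38 and the submitters' processing notes hg19. The table has no coordinates, and those given here come from GENCODE 44 by Ensembl identifier.

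The deposited values are on a log2 scale after variance stabilization. Its closed form was inverted and gave whole reads, within 0.05, for 100% of values in every library, with size factors of 0.852 to 1.20. Limma 3.58.1 in R 4.3.3 was fitted to the log2 values of all 17013 genes and 12 libraries with a variance trend, 4 group means and Benjamini-Hochberg adjustment over all genes. Log2 differences understate changes of low genes. On simulated data for doxorubicin in siNT cells, 93 of 100 genes changed by 1 log2 unit and 100 of 100 changed by 2 were called among 17013, with 8 calls among the unchanged genes. The simulation gave all genes the same fixed dispersion, changed far fewer genes than were called here and held no outlying library. The shares called therefore need not hold for these libraries, and smaller differences were not simulated.

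Members, lists and ratios were chosen with earlier results of these data known. Named genes of the related lists are up to 4 per list and comparison that passed the test, by size of the difference. Markers are given as a list. Genes like SAT1 and ODC1 are the 5 nearest. Equally numbered libraries deviated together in all 3 pairs for doxorubicin in siNT cells (correlations 0.46, 0.11 and 0.20) and for siMLK4 against siNT with doxorubicin (0.19, 0.52 and 0.56), read from the values alone, and not in the other comparisons.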

Additional observations from a re-analysis of the deposited data

Results flagged for a closer look

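KRT5, a basal keratin used to check the cell type, was the 1 listed gene whose response to doxorubicin differed between siMLK4 and siNT cells in the test of that difference. The interaction was −0.96 ± 0.22 on the log2 scale (SE; adjusted p = 0.047, limma). KRT5 had 17185, 22489 and 22960 normalized reads in siNT vehicle and 7659, 8316 and 10476 in siNT doxorubicin libraries. In siMLK4 cells it went from 33618, 31749 and 31405 to 6996, 5955 and 8155. The drug difference was thus −1.24 in siNT and −2.20 in siMLK4 cells, and the start level was higher in siMLK4 cells. The interaction ranged from −1.07 to −0.83 on leaving out 1 library and lost its call in 10 of the 12 fits, with adjusted p up to 0.13. No cause was tested.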

How the results depend on the processing

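Of 936 values of the 9 genes under other settings, 29 lost and 9 gained a call and 18 changed sign. The genes called numbered 6 (drug in siNT cells), 5 (drug in siMLK4 cells), 5 (knock-down in vehicle), 4 (knock-down in doxorubicin) and 0 (interaction), and counts below keep this order. At the study's thresholds they were 2, 1, 0, 1 and 0, by construction. Leaving out 1 library gave 5 to 7, 3 to 6, 5 to 6, 3 to 4 and 0. Fitting only the groups compared left 3 with vehicle, where SAT1 and AMD1 were lost. In that fit 8.76% of all genes were higher and 8.46% lower with vehicle, against 12.7% and 13% in the main fit. The replicate block gave 6, 5, 5, 4 and 0 and changed no call. TMM scaling, log2(normalized reads + 1 or 0.5), limma-voom, no variance trend and a minimum of 10 reads per library gave these same counts. That minimum kept 13295 genes and took the drug calls of all genes to 3147 higher and 4244 lower in siNT and 3353 and 4088 in siMLK4 cells.

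Library totals in place of size factors moved the median of all genes to 0.24, 0.21, 0.16 and 0.12 and the genes with doxorubicin in siNT cells from 5029 higher and 4716 lower to 6787 and 3117. In siMLK4 cells the split went from 5142 and 4716 to 6479 and 3390, for the knock-down in vehicle from 2164 and 2217 to 3499 and 1419, and in doxorubicin from 2158 and 2061 to 2622 and 1522. For the interaction it went from 98 and 106 to 59 and 100. Under it SMS and OAZ2 lost their drug calls (adjusted p = 0.12 and 0.054 in siNT, 0.16 and 0.41 in siMLK4 cells), SMOX gained one in siMLK4 cells (0.58, adjusted p = 0.011), and SMOX with doxorubicin in siNT cells reversed to 0.16. The count of members became 4 in either drug comparison. Over all genes, the calls at the study's thresholds for the knock-down in vehicle went from 961 to between 1483 and 1841 with limma-voom or any log2 of scaled reads and to 611 with only the groups compared, and in doxorubicin from 950 to between 1349 and 1466. Leaving out siMLK4 doxorubicin replicate 1 or siNT doxorubicin replicate 3 left 1272 and 1303, or 1430 and 1405, higher and lower calls for the knock-down in doxorubicin. The interaction calls of all genes, 98 higher and 106 lower, moved by 1.5 times or more without any doxorubicin library or siMLK4 vehicle replicate 1 or 2, from 19 and 39 (without siMLK4 doxorubicin replicate 1) to 192 and 159 (without siMLK4 doxorubicin replicate 3), and those at the study's thresholds from 47 to between 0 and 37.

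Signs also turned, for values that passed no test, on leaving out 1 library. SMOX ranged from −0.24 to 0.084 with doxorubicin in siNT cells and from −0.056 to 0.13 between siMLK4 and siNT with doxorubicin. AMD1 ranged from −0.048 to 0.17 with doxorubicin in siMLK4 cells. The interaction ranged from −0.058 to 0.22 for ODC1, from −0.058 to 0.21 for SMS and from −0.23 to 0.21 for OAZ1. The causes were not tested. At an adjusted p under 0.05, SRM kept direction and call in all 4 comparisons under every setting, and SAT1 lost only the call named. Leaving out each library was also tried, chosen after seeing the data, for 43 differences of other genes named. Of the 39 that passed, 35 passed in every fit, and those of AZIN2 between siMLK4 and siNT cells, of DOHH with doxorubicin in siMLK4 cells and the interaction of KRT5 did not. With 3 libraries a group, standard errors of the 9 genes ran from 0.11 to 0.21 log2 units in the drug and knock-down comparisons.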
